A study of Mus musculus with 5 samples.

Results

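The 8 genes Flna, Vcl, Zyx, Actn1, Actn4, Myh9, Csrp1 and Pdlim7 code for proteins that cross-link actin filaments or sit in focal adhesions, and they are described here across single cells of 3 mouse types. They were taken by name from the rows of the deposited count tables, out of 15597 genes with at least 1 read on any plate, and a gene with no row on a plate was counted as 0 reads there. The types were embryonic stem (ES) cells of the R1 line, which the labels call ES cell-derived spheres, on 3 plates, Neuro2A, a neuroblastoma line, on 1 plate, and mouse embryonic fibroblasts (MEF) on 1 plate. The labels give no treatment or engineered allele for any of them. MEF and Neuro2A were grown in DMEM with serum and ES R1 by an earlier published protocol, and all cells were dissociated enzymatically and sorted 1 per well. A barcode was added to the 5′ ends in each well, and PCR was run on the pool of a plate's 96 wells.

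Focal adhesions are assemblies on the inner face of the membrane where integrins, the receptors for extracellular matrix, are coupled to actin filaments. Filamins and alpha-actinins cross-link the filaments, vinculin and zyxin belong to the plaque that ties them to integrins, LIM-domain adaptors bind along the resulting stress fibres, and non-muscle myosin II pulls on them. Spread fibroblasts are the textbook case of cells with large adhesions and thick stress fibres.

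A minimum of 1000 gene reads per well left 93, 66 and 94 ES wells (replicates 1, 2 and 3), 86 Neuro2A wells and 92 MEF wells, or 431 of 480 beside the 436 cells of the stated design. They held 11432543, 262517 and 2134248 gene reads for ES, 3155092 for Neuro2A and 2930884 for MEF, and levels are given as CPM, a gene's reads scaled to a total of 1e+06 of these reads. ES replicate 2 stood apart, with 82.4% of all its reads on repeats against 23.02% to 40.0% on the other plates. All 96 barcodes occurred on all 5 plates. For 199 genes specific to MEF, ES replicate 3 held a median of 10.8% of the MEF reads, and its wells followed the MEF wells of the same barcode with a Spearman correlation of 0.950, or 0.677 as shares of gene reads. For 132 genes specific to Neuro2A, MEF likewise held 9.39% of the reads, with a correlation of 0.553. Such reads are called carried-over here after this match of barcodes. How they arose was not tested. Other pairs of plates matched too. For 74 genes specific to Neuro2A, ES replicate 3 held a median of 1.81% of the reads, with a correlation of 0.743, or 0.516 as shares. For 8 genes specific to ES replicate 3, MEF held 25.0%, with a correlation of 0.513, or 0.343 as shares. Only reads of MEF on ES replicate 3 and of Neuro2A on MEF are subtracted below. The cell types could be told by the sums of their markers: 8 ES markers summed to 5889 to 8991 CPM for ES, 0.317 for Neuro2A and 1.71 for MEF. The 10 of 12 listed neuroblastoma markers in the files summed to 1849 CPM in Neuro2A, 206 in MEF and, by ES replicate, 0.787, 87.6 and 112. Single markers could go the other way: Gata3 had 14.6 CPM in Neuro2A and 42.3 in MEF, and the fibroblast marker Pdgfra 95.4 and 8.87. The 13 fibroblast markers summed to 20854 CPM in MEF, 841 in Neuro2A and, by ES replicate, 0, 164 and 2740.

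Together the 8 genes took 4270 CPM in MEF, 590 in Neuro2A, and 815, 849 and 1066 on the ES plates in replicate order. For 7 of the 8, all but Pdlim7, every ES plate and Neuro2A lay below MEF, as the plot of levels shows. The distance differed among them, from 2.08 times the ES mean for Actn4 to 10.7 times for Zyx. The ES mean of Zyx includes 0 reads on ES replicate 1.

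**Figure D1:**
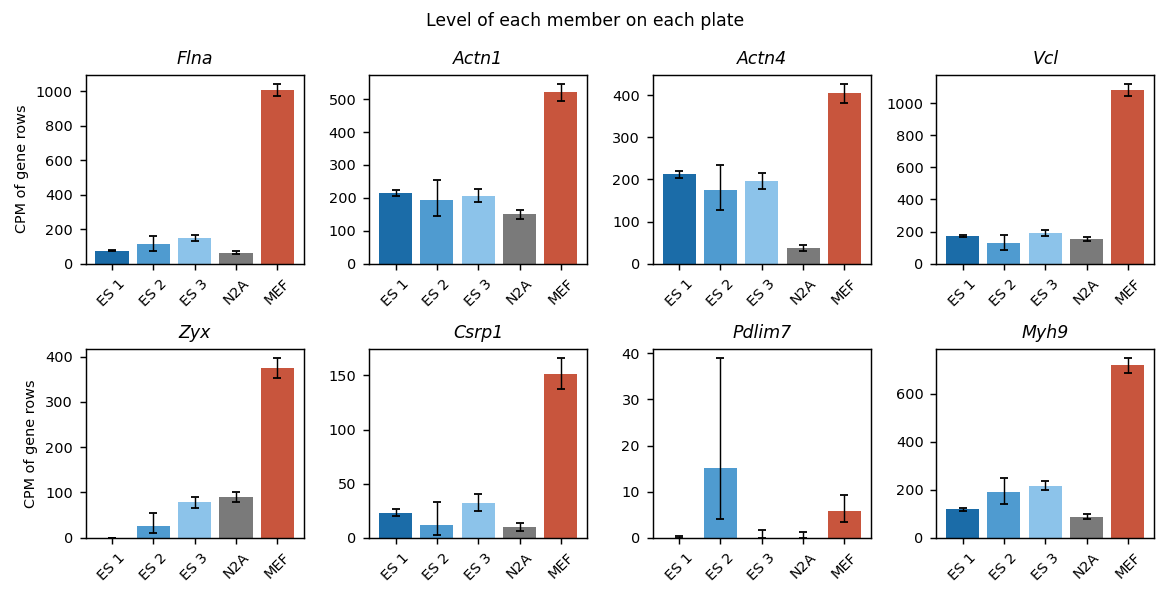
CPM over gene rows of the 8 genes (panels) on the 3 ES plates (blue), Neuro2A (N2A, grey) and MEF (red); bars are plate sums over kept wells and error bars exact 95% Poisson intervals, which cover counting error only. MEF is the tallest bar in 7 panels, and in the Pdlim7 panel ES replicate 2 rests on 4 reads.

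Among the cross-linkers, Flna (filamin A), which joins filaments into meshworks and binds integrin tails, had 74.7, 110.5 and 147 CPM in ES replicate order, 63.1 in Neuro2A and 1008 in MEF, from 854, 29, 314, 199 and 2954 reads. MEF thus held 9.10 times the ES mean of 111 ± 36.2 CPM (SD, n = 3). The ES and Neuro2A values lay close together and far from MEF. Actn1, a non-muscle alpha-actinin that bundles filaments as an antiparallel dimer, had 214, 194 and 207 CPM in ES, 150.2 in Neuro2A and 521 in MEF, 2.54 times the ES mean of 205 ± 10.2 CPM. It had the narrowest spread over the ES plates of the 8, a coefficient of variation of 4.97%. Its close relative Actn4 had 212, 175 and 195 CPM in ES, 35.8 in Neuro2A and 405 in MEF, 2.08 times the ES mean of 194 ± 18.5 CPM. The Neuro2A level of Actn4 was 0.184 of the ES mean, against 0.732 for Actn1.

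In the plaque, Vcl (vinculin), which links talin to actin and strengthens an adhesion under load, had 172, 126 and 189 CPM in ES, 154 in Neuro2A and 1086 in MEF. MEF held 6.70 times the ES mean of 162 ± 32.7 CPM, and Neuro2A fell among the ES plates. Zyx (zyxin), a LIM protein that brings actin-polymerising Ena/VASP proteins to adhesions and stress fibres, had 0, 26.7 and 78.2 CPM in ES, 89.4 in Neuro2A and 374 in MEF. The ES plates were unlike each other here, with a mean of 35.0 ± 39.8 CPM, and the 0 of ES replicate 1 stood on the deepest plate. That plate also had 0 reads for 9 of 18 relatives of the members and for 6 of 23 plaque and signalling genes. ES replicate 2, the shallowest plate, had 0 reads for 2 and 4 of them. Why was not tested, so no fold difference is given against ES replicate 1 alone. The 0 does enter the ES means of Zyx and lowers them, which raises each ratio of MEF to an ES mean. Against ES replicate 3, the highest ES plate, MEF held 4.78 times as much Zyx. Without ES replicate 1 the other 2 ES plates still lay below both Neuro2A and MEF.

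Of the LIM adaptors, Csrp1, which binds zyxin and alpha-actinin, had 23.3, 11.4 and 31.9 CPM in ES, 9.83 in Neuro2A and 151 in MEF, 6.83 times the ES mean of 22.2 ± 10.3 CPM. In ES replicate 2 and Neuro2A these levels came from 3 and 31 reads. Pdlim7 (enigma), which carries a PDZ and several LIM domains, was hardly read at all: 17 reads in 3 MEF wells, 4 reads in 1 well of ES replicate 2, and 0 on the other plates. Its 5.80 CPM in MEF and 15.2 CPM in ES replicate 2 do not rank the types. By a floor of 3 reads, which covers counting only, a 0 allowed at most 0.262 CPM in ES replicate 1, 1.41 in ES replicate 3 and 0.951 in Neuro2A.

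The motor, Myh9 (heavy chain of non-muscle myosin IIA), had 119, 190.5 and 218 CPM in ES, 87.5 in Neuro2A and 719 in MEF, 4.09 times the ES mean of 176 ± 51.2 CPM. The 3 ES plates lay above Neuro2A and below MEF. In the GENCODE annotation, exons of Vcl, Zyx, Actn1 and Actn4 overlap exons of genes on the opposite strand (Ap3m1, Epha1, Gm47766 with Gm47767, and Capn12). The sources used here do not give whether strand was used in counting.

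The balance between members also differed, a comparison that no scaling of the libraries can move. For each read of Actn4 there were 0.352, 0.630 and 0.753 reads of Flna in ES, 1.76 in Neuro2A and 2.49 in MEF. Actn1 reads per read of Actn4 were 1.01, 1.11 and 1.06 in ES and 1.29 in MEF, but 4.19 in Neuro2A. Vcl reads per read of Actn1 were 0.801, 0.647 and 0.914 in ES, 1.02 in Neuro2A and 2.08 in MEF. With the subtraction of carried-over reads described below, ES replicate 3 went from 0.753 to 0.392 reads of Flna per read of Actn4 and from 0.914 to 0.448 reads of Vcl per read of Actn1.

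The test of ES against MEF rested on the spread of the 3 ES plates, since MEF and Neuro2A had 1 plate each. The labels do not tell whether the ES plates are separate cultures, so a p-value here measures plate-to-plate spread, which may be technical. For MEF and Neuro2A the type and the plate cannot be told apart. All 8 genes passed the filter on low counts. edgeR's quasi-likelihood test called 0 of the 8 lower in ES after Benjamini-Hochberg adjustment over all 12271 genes, and 0% of all genes. At an unadjusted p under 0.05 it had 6 of the 8 lower (all but Zyx and Pdlim7) and 0 higher, beside 4.17% of all genes lower. No share over all genes is given for the 0 higher. Every ES plate lay below MEF for 7 of the 8, beside 39.8% of all genes, and 50.5% of those with at least 100 CPM on a plate. For 0 of the 8 did every ES plate lie above MEF, beside 23.3% of all genes. DESeq2 called Flna, Vcl and Myh9 lower, 3 of the 8 beside 1.02% of the 8464 genes to which it gave an adjusted p (it gave none to Pdlim7), and limma-voom called Flna, Vcl, Zyx and Myh9, 4 of the 8 beside 4%.

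Fitted log2 fold changes of ES against MEF were −3.91 ± 0.68 (SE) for Flna with an unadjusted p of 0.00122 and an adjusted p of 0.472 in edgeR, and −3.45 ± 0.65 for Vcl with 0.00182 and 0.472. Myh9 had −2.77 ± 0.66 with an edgeR adjusted p of 0.472, Csrp1 −3.42 ± 1.06 with 0.519, Actn1 −2.08 ± 0.62 with 0.511 and Actn4 −1.79 ± 0.64 with 0.556. Zyx had a large value with a wide error, −4.09 ± 2.28 with an adjusted p of 0.594 in edgeR. The median of the 8 was −3.10, beside −0.08 over all genes. TMM scaling raised MEF levels relative to the library size: without it the same medians were −2.39 and 0.65. Every one of these 7 genes kept its direction under each of the alternatives that tested it.

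**Figure D2:**
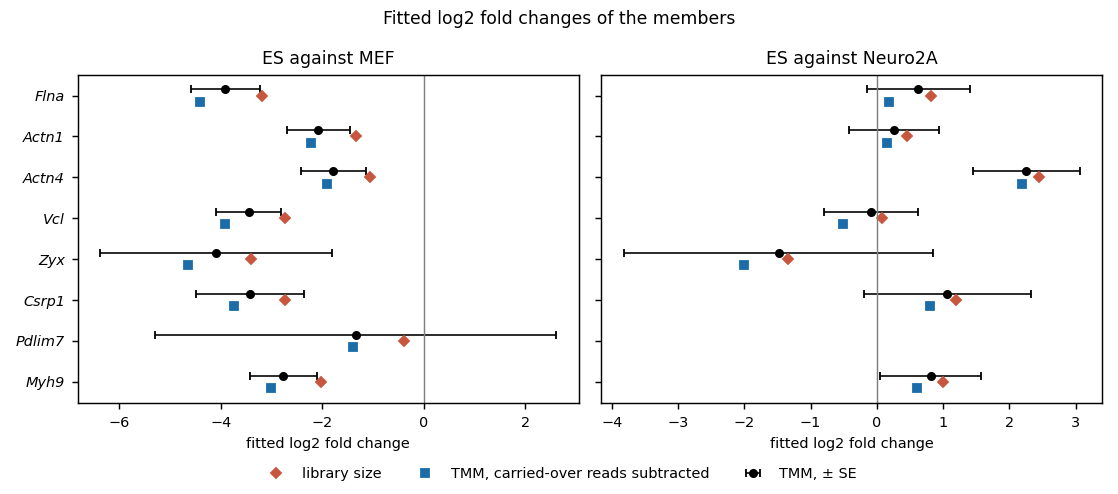
Fitted log2 fold changes (x axis) of the members (y axis) for ES against MEF (left) and ES against Neuro2A (right): black circles with SE from the TMM-scaled edgeR fit, red diamonds by library size, blue squares after subtraction of carried-over reads. In the left panel the circles of 7 genes run from −4.09 for Zyx to −1.79 for Actn4, and Pdlim7 is left out on the right because Neuro2A had 0 reads of it.

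A single ES plate bore on the count of calls. With ES replicate 1 left out and the tested genes kept, edgeR called Flna, Vcl, Zyx and Csrp1 lower, 4 of the 8 beside 3.82% of all genes, with adjusted p-values of 0.00673, 0.0102, 0.0123 and 0.0484. With the filter run anew on the remaining plates it called 0. With every well thinned to 1000 reads, edgeR called 2 members, Flna and Myh9, beside 3.52% of the 4352 genes tested. Csrp1 and Pdlim7 were not among the genes tested there. Over all alternatives the adjusted p ran from 0.000465 to 0.834 for Flna, from 0.00125 to 0.834 for Vcl and from 0.0062 to 0.834 for Myh9.

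The members on ES replicate 3 showed the same match with MEF barcodes. Vcl had reads on 46 of the 59 barcodes with a Vcl read in MEF and on 2 of the other 37, with a correlation of 0.840 between the wells of the same barcode. Of the 403 Vcl reads of ES replicate 3, 386 lay at barcodes where MEF had one. The correlation was 0.675 for Flna, 0.557 for Myh9, 0.548 for Actn1, 0.508 for Zyx, 0.473 for Actn4 and 0.382 for Csrp1. For the summed members it was 0.720, against 0.161 with ES replicate 1 and 0.211 with ES replicate 2. These are descriptions over 96 barcodes, and reads per well also follow the depth of the well on both plates.

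**Figure D3:**
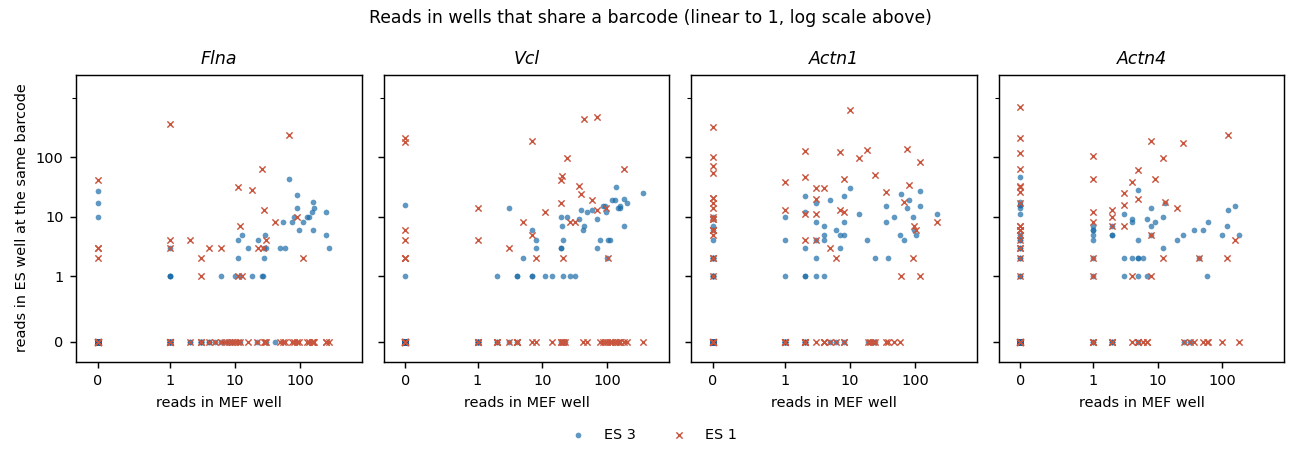
Reads of 4 members in ES wells (y axis) against reads in the MEF well with the same barcode (x axis), both linear to 1 and logarithmic above; blue dots are the 96 wells of ES replicate 3 and red crosses those of ES replicate 1. The blue dots rise with the MEF reads most tightly for Vcl, with a correlation of 0.840, and the crosses have a correlation of 0.205 there.

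Taking 10.8% of the MEF reads off ES replicate 3 at each barcode, and 9.39% of the Neuro2A reads off MEF, left 68.2 CPM of Flna on ES replicate 3 in place of 147, 74.9 of Vcl in place of 189, and 49.6 of Zyx in place of 78.2. Actn1 went to 167, Actn4 to 174, Myh9 to 156 and Csrp1 to 21.7 CPM. The ratio of MEF to the ES mean was then 12.7 for Flna, 9.22 for Vcl, 15.4 for Zyx, 4.90 for Myh9, 8.56 for Csrp1, 2.84 for Actn1 and 2.30 for Actn4, since the subtraction lowers these genes on that plate by construction. ES replicate 3 could also be left out. Against the mean of ES replicates 1 and 2, MEF held 10.9 times as much Flna, 8.73 times as much Csrp1 and 7.30 times as much Vcl. It held 4.65 times as much Myh9, 2.55 times as much Actn1 and 2.09 times as much Actn4. For Zyx the ratio was 28.1, over a mean of 0 CPM and the 26.7 CPM that 7 reads gave on ES replicate 2. After subtraction edgeR still called none of the 8, with adjusted p-values of 0.219 for Flna, 0.225 for Vcl and 0.226 for Myh9.

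ES and Neuro2A differed much less in these genes. edgeR called 0 of the 8 in either direction, as it called 0% of all genes, and at an unadjusted p under 0.05 it had Actn4 alone, higher in ES, beside 8.38% of all genes higher. limma-voom called 0. Actn4 had a log2 fold change of 2.26 ± 0.81 (SE) with an unadjusted p of 0.0316 and an adjusted p of 0.371 in edgeR. DESeq2 called Actn4, with an adjusted p of 0.0484, beside 11.4% higher among the 9416 genes to which it gave one, and the adjusted p over the alternatives ran from that to 0.688. The other fitted values were 0.63 ± 0.77 for Flna, −0.09 ± 0.71 for Vcl, −1.48 ± 2.34 for Zyx, 0.26 ± 0.68 for Actn1, 0.81 ± 0.76 for Myh9 and 1.06 ± 1.26 for Csrp1, and all of these but that of Myh9 were smaller than their SE. No value is given for Pdlim7, with 0 reads in Neuro2A. Every ES plate lay above Neuro2A for Flna, Actn4 and Myh9, 3 of the 8 beside 28.8% of all genes, and without scaling for Actn1 and Csrp1 too, 5 beside 30.9%. Zyx was the 1 gene with every ES plate below Neuro2A, beside 28.1% of all genes. The median of the 8 was 0.72, beside 0.91 over all genes.

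MEF and Neuro2A had 1 plate each and no test. By ratio of TMM-scaled CPM + 1, all 8 genes were at least 4-fold higher in MEF, beside 27.6% of all genes, and by library size 7 of the 8, beside 23.9%. In plain CPM, MEF held 16.0 times the Neuro2A level of Flna (95% interval of counting error 13.8 to 18.5), 15.4 times that of Csrp1 (10.7 to 22.97), 11.3 times that of Actn4 (9.31 to 13.8), 8.22 times that of Myh9 (7.25 to 9.35), 7.06 times that of Vcl (6.42 to 7.79), 4.19 times that of Zyx (3.67 to 4.79) and 3.47 times that of Actn1 (3.13 to 3.85). In this order each interval overlapped that of the next gene, except for Vcl and Zyx. The Pdlim7 level in MEF was at least 6.10-fold higher than 3 reads in Neuro2A, or 4.44-fold at the lower limit of counting error on its 17 reads, of which 12 came from 1 well. Single wells moved some of these: without the well with the most reads on each plate the ratio was 29.2 for Flna and 17.4 for Actn4, and 50.3% of the Flna reads and 45.1% of the Actn4 reads of Neuro2A came from 1 well. With wells weighted equally the ratio was 24.3 for Flna, 12.03 for Myh9, 11.5 for Actn4, 7.65 for Csrp1, 4.65 for Actn1, 3.803 for Vcl and 1.43 for Zyx.

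Once depth was made equal, each of the 8 members was read in a larger share of wells on the MEF plate than on any other, though Csrp1 and Pdlim7 had reads in too few wells to order the plates. After thinning each well to 1000 gene reads, Vcl had a read in 38.0% of MEF wells (exact 95% interval 28.1 to 48.8), Myh9 in 35.9% (26.1 to 46.5), Flna in 34.8% (25.1 to 45.4), Actn1 in 27.2% (18.4 to 37.4), and Zyx and Actn4 in 22.8% each (14.7 to 32.8). On the 3 ES plates the thinned shares were 10.8%, 7.58% and 11.7% for Vcl, 11.8%, 9.09% and 17.0% for Myh9 and 4.30%, 6.06% and 7.45% for Flna, and on Neuro2A 6.98%, 5.81% and 4.65%. These intervals cover the sampling of wells on single plates only and are no test between cell types. For Vcl and Flna the MEF interval lay above those of the other 4 plates, and for Myh9 it met that of ES replicate 3 (10.1 to 26.2). Zyx had thinned shares of 0%, 3.03% and 6.38% on the ES plates and 8.14% in Neuro2A. Its MEF interval met that of Neuro2A (3.34 to 16.1) and lay above those of the ES plates. For Actn4 the ES shares of 12.9%, 13.6% and 16.0% had intervals that reached into that of MEF, and Neuro2A had a read in 1 of 86 wells, 1.16%. For Actn1 the share of 18.1% on ES replicate 3 did so as well. Csrp1 had reads in 5.43% of thinned MEF wells, 4.26% of those of ES replicate 3 and 0% elsewhere, which on ES replicate 2 allows up to 4.55% by a floor of 3 wells and 5.44% by the exact interval.

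**Figure D4:**
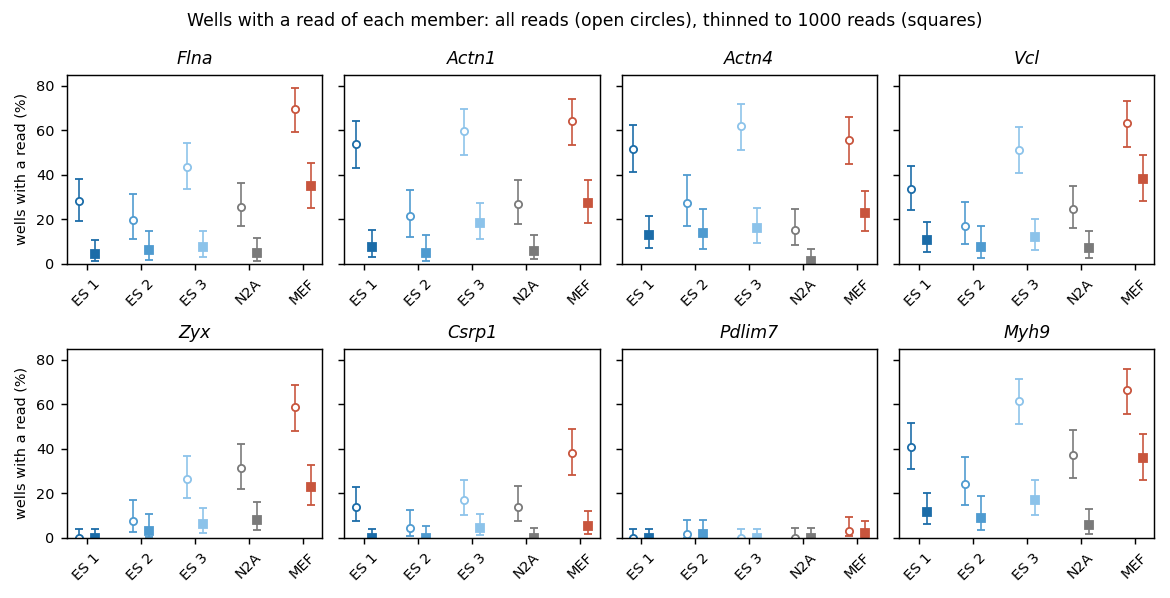
Percent of kept wells (y axis) with at least 1 read of each member (panels) on the 5 plates, with all reads (open circles) and after thinning to 1000 gene reads per well (squares), with exact 95% binomial intervals. After thinning, the MEF square lies at 22.8% to 38.0% for 6 members, and at 5.43% for Csrp1 and 2.17% for Pdlim7.

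Without thinning, Flna had a read in 28.0%, 19.7% and 43.6% of ES wells, 25.6% in Neuro2A and 69.6% in MEF, at median depths of 101130, 2520.5, 17003, 26278 and 12749 gene reads per well. The plates did not rank by this share as they ranked by depth. As a background, ES markers had reads in at most 1.16% of Neuro2A wells and at most 1.09% of MEF wells, and the 13 fibroblast markers in 0% of wells of ES replicate 1. On ES replicate 3, fibroblast markers had reads in a median of 11.7% of wells, from 1.06% to 67.0%. That range is too wide to test the shares of the 7 members with reads there (17.0% for Csrp1 to 61.7% for Actn4 and Myh9), so these shares alone are not read as expression. After subtraction of carried-over reads they were 52.1% for Actn4, 51.1% for Actn1, 46.8% for Myh9, 30.9% for Vcl, 20.2% for Flna, and 14.9% for Zyx and Csrp1. Zyx had a read in 0 of 93 wells of ES replicate 1, which allows a share of wells with a read of up to 3.23% by a floor of 3 wells and 3.89% by the exact interval.

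The median MEF well held reads of 5 of the 8 genes, against 2, 1 and 3 in the ES plates and 1 in Neuro2A. With thinning, summed member reads had a median of 3 per 1000 in MEF, with quartiles of 1 and 5, and of 0, 0 and 1 in the ES plates and 0 in Neuro2A. No thinned member read at all was left in 20.7% of MEF wells, 63.4%, 62.1% and 47.9% of ES wells and 74.4% of Neuro2A wells. The well distributions of MEF and the other types overlapped broadly.

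**Figure D5:**
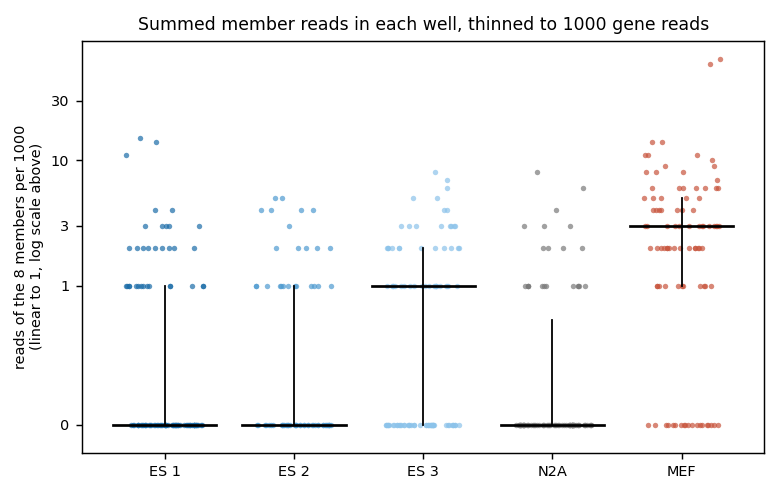
Reads of the 8 members summed in each kept well after thinning to 1000 gene reads (y axis, linear to 1 and logarithmic above) on the 5 plates; each point is a well, horizontal bars are medians and vertical lines quartiles. The median is 3 in MEF, 1 in ES replicate 3 and 0 on the other plates, and the highest well, in MEF, holds 64.

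Reads of a member were spread unevenly over the wells of a type. In MEF, Flna ran from 0 to 57876 CPM per well with a median of 546, and its highest well had 97 of only 1676 gene reads on Flna while the next had 3221 CPM. Myh9 ran from 0 to 62028 CPM with a median of 231, the top being 74 of 1193 reads in a well, and the next 7029. Vcl ran from 0 to 6008 CPM with a median of 448. Csrp1 had 38.1% of its MEF reads in 1 well. On the ES plates 1 well held 42.7% of the Flna reads of replicate 1 and 39.2% of the Actn1 reads of replicate 2. When wells rather than reads were weighted equally, the ratio of MEF to the ES mean was 13.6 for Flna, 6.68 for Myh9, 3.79 for Vcl, 3.82 for Zyx, 3.30 for Csrp1, 1.67 for Actn1 and 1.35 for Actn4. In the wells whose barcode ended in G the ratio was 1.14 for Actn1 and 3.20 for Csrp1, against 2.65 and 9.18 in the others. The 23.3 CPM of Csrp1 in ES replicate 1 came from these wells, 72.9 CPM against 0.637.

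Within MEF, correlations between members were low in thinned wells, in which few wells hold reads of both genes of a pair (at most 16 of 92). Across the 92 thinned wells, the Spearman correlation between pairs of the 7 genes other than Pdlim7 ran from −0.06 to 0.34 over 21 pairs, with a median of 0.10. The highest was between Actn1 and Actn4, which shared 12 wells with a read of each and whose transcripts share 1.50% and 1.34% of their 25-base words with one another. For Vcl and Myh9 the member with the highest correlation was Actn1, at 0.24 and 0.20, for Flna it was Pdlim7 at 0.22, which rests on 2 thinned wells with a Pdlim7 read, and Zyx and Csrp1 had their highest value with each other, 0.11. As shares of all reads the same 21 values ran from 0.16 to 0.47 with a median of 0.32, and wells share a library and differ in depth. The 8 other genes with the highest correlation to the summed members, among 720 genes read in at least 50% of MEF wells, were Thbs1 (0.40), Itm2b (0.33), Timp1 (0.33), Timp3 (0.32), Npc2 (0.32), Sparc (0.30), Nol5 (0.30) and Col1a2 (0.30), beside a median of 0.05 over the 720. Thbs1 and Col1a2 were among the fibroblast markers, and Sparc and the Timp genes code for secreted matrix and protease-inhibitor proteins. Itm2b, Npc2 and Nol5 were not fibroblast markers here. Nol5 was higher in ES, with 440, 587 and 586 CPM there and 323 in MEF. Npc2 and Nol5 had reads in 17 thinned MEF wells each. Acta2, the smooth muscle actin of stress fibres, had 0.26 at rank 20, and Tagln of the same marker list 0.19 at rank 80.

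Of the markers of other cell types that use this machinery, those of smooth muscle peaked in MEF, as the summed members did. They differed far more than the members between the other plates. Their sum was highest among the ES plates on ES replicate 3, and the part of carried-over reads in it was not tested. The 8 smooth muscle and myofibroblast markers summed to 4221 CPM in MEF, of which Acta2 made 3094, and to 1.66, 34.3 and 777 CPM on the ES plates and 5.07 in Neuro2A, with 0 of the 8 at 0 reads in MEF. The sums of the other lists did not peak in MEF, though on ES replicate 2 they rest on few reads. Skeletal and cardiac muscle markers summed to 62.1 CPM in MEF and 80.0 in ES replicate 2, where Myl1 made 76.2 from 20 reads in 4 wells. Of the 6 muscle genes tested, 4 had every ES plate below MEF, beside 39.8% of all genes. Platelet and megakaryocyte markers summed to 4.09 in MEF, 16.5 in Neuro2A and 19.05 in ES replicate 2. Endothelial markers summed to 0.341 CPM in MEF and 114 in ES replicate 2, there from 20 reads of Pecam1 and 10 of Cdh5. Macrophage markers summed to 0 in MEF, 22.9 in ES replicate 2 and 22.5 in ES replicate 3. The part of these markers in the members' levels was not tested.

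The relatives of the members did not follow one pattern. Flnc, the filamin of muscle, had 0, 3.81 and 21.1 CPM in ES, 0.951 in Neuro2A and 250.1 in MEF. Myh10, heavy chain of non-muscle myosin IIB, had 31.3, 11.4 and 51.1 CPM in ES, 12.4 in Neuro2A and 215 in MEF, 6.86 times the ES mean. Csrp2 was on the ES side, with 137, 168 and 172 CPM there, 33.9 in Neuro2A and 105 in MEF, and Pdlim1 had 146, 145 and 61.4 CPM in ES, 0 in Neuro2A and 107 in MEF. Lpp, a relative of zyxin, had 0, 3.81 and 70.8 CPM in ES, 0.317 in Neuro2A and 229.6 in MEF. Of the 16 relatives tested, edgeR called 0, 1 was lower in ES at an unadjusted p under 0.05 beside 4.17% of all genes, and 10 had every ES plate below MEF beside 39.8%, with a median log2 fold change of −1.29.

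Other genes of adhesion and actin were read from 4 further lists. In the plaque and signalling list, 19 of 22 genes tested had every ES plate below MEF, beside 39.8% of all genes, and 2 had every one above it, beside 23.3%. The median log2 fold change was −1.86. The genes of highest level were Plekhc1 (kindlin-2, an integrin activator), with 148, 87.6 and 246 CPM in ES, 43.4 in Neuro2A and 381 in MEF, Crk and Lims1. Crk, an adaptor, had 206, 149 and 95.6 CPM in ES, 207 in Neuro2A and 223 in MEF. Lims1 (PINCH), a partner of integrin-linked kinase, had 14.3, 80.0 and 87.2 CPM in ES, 183 in Neuro2A and 331 in MEF. Of 7 integrin subunits, 5 had every ES plate below MEF, beside the same 39.8%. Itgb1, the beta chain shared by most matrix receptors, had 155, 64.8 and 374 CPM in ES, 422 in Neuro2A and 2544 in MEF. Itga5, a fibronectin receptor chain, had 0, 19.05 and 35.1 CPM in ES, 4.75 in Neuro2A and 295 in MEF. Itgb5 had 12.8, 15.2 and 38.0 CPM in ES, 30.7 in Neuro2A and 91.8 in MEF. The integrin chain on the other side was Itga6, singled out after its values were seen, with 85.9, 160.0 and 98.9 CPM in ES, 1.27 in Neuro2A and 2.05 in MEF.

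In the list of actin bundling, stress fibre and myosin II genes, 20 of 23 had every ES plate below MEF, beside 39.8% of all genes, with a median log2 fold change of −2.61 beside −0.08. At an unadjusted p under 0.05, 11 were lower in ES, beside 4.17% of all genes. Tpm1, a tropomyosin that coats stress fibre filaments, had 45.7, 45.7 and 685 CPM in ES, 147 in Neuro2A and 5321 in MEF. Tpm4, another tropomyosin, had 228, 49.5 and 242 CPM in ES, 222 in Neuro2A and 1106.5 in MEF. Capzb, a filament capping subunit, had 302, 187 and 636 CPM in ES, 217 in Neuro2A and 1005.5 in MEF. In the serum response factor list, 10 of 11 had every ES plate below MEF, beside 39.8% of all genes, with a median of −4.60. Acta2 had 0, 19.05 and 650.4 CPM in ES, 2.85 in Neuro2A and 3094 in MEF. Ctgf, a secreted matrix-associated protein, had 22.1 (253 reads in 1 well), 0 and 111 CPM in ES, 0 in Neuro2A and 1096 in MEF. Cyr61, its relative, had 0, 7.62 and 151 CPM in ES, 0.951 in Neuro2A and 875.5 in MEF. The ES replicate 3 values of Tpm1, Acta2, Ctgf and Cyr61 were the highest of the ES plates, and what the match of barcodes with MEF adds to them was not tested. Over the 5 lists, 64 of 79 genes tested had every ES plate below MEF, beside 39.8% of all genes, and edgeR called 0. At an unadjusted p under 0.05 in edgeR, 18 were lower in ES, beside 4.17% of all genes, and 1 was higher. DESeq2 called 4 lower, beside 1.02% of the 8464 genes to which it gave an adjusted p, and 1 higher. For the genes higher in ES at these thresholds no share over all genes is given, so the higher and lower counts are not compared. Every ES plate lay above MEF for 5 of the 79, beside 23.3% of all genes. At least 4-fold higher in MEF than in Neuro2A were 57, beside 27.6% of all genes.

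The stretch before the transcription start was read for the 8 genes because 7 of them stood on the same side between MEF and the other plates. RefSeq windows of 250 bases upstream on GRCm38.p6 were found for all 8. A CArG box, the site of serum response factor, occurred on either strand in 1 of the 8, Vcl, as CCTTATAAGG from 227 to 218 bases before the start, and in 1.62% of 27025 genes. GGAATG, the core of the TEAD site, occurred on either strand in 3 of the 8, Flna, Vcl and Actn4, and in 14.4% of genes. TATAAA was found before Myh9 (14.3% of genes) and TGACTCA before Zyx (5.16% of genes), and none of these 4 motifs overlapped in the windows below. The windows of Flna (chrX:74246535-74246784, minus strand), Vcl (chr14:20929148-20929397, plus strand) and Actn4 (chr7:28962333-28962582, minus strand) are given 5′ to 3′ as the 3 that hold GGAATG or its complement CATTCC, in capitals with the CArG box of Vcl.
Flna: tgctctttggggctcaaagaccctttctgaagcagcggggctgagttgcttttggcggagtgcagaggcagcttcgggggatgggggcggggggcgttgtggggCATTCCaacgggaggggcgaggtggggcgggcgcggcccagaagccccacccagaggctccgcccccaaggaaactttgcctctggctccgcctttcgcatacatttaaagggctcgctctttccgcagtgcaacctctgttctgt
Vcl: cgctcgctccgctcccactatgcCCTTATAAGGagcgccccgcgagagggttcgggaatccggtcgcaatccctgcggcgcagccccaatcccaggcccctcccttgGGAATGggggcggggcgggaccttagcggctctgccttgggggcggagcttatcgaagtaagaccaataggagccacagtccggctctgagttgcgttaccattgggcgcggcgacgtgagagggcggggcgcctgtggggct
Actn4: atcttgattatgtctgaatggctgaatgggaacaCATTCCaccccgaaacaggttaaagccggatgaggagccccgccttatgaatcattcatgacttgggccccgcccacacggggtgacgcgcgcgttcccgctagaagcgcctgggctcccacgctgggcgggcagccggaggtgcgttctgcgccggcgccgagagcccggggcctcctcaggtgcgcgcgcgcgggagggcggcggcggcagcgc
The capitals lie 146 to 141 bases before the start of Flna, 143 to 138 before that of Vcl and 216 to 211 before that of Actn4. Of these 3 genes, MEF held 9.10 times the ES mean for Flna, 6.70 times for Vcl and 2.08 times for Actn4. A match is a description of the letters only.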

How the data were processed

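Single-cell tagged reverse transcription libraries of 5 plates were used as the authors deposited them: per the readme deposited with the series, raw read counts with 1 row per feature and 1 column per barcode. The submitters' processing notes list Bowtie, without a version; neither build nor annotation is given in the sources used here, and the protocols in the labels name no molecular identifiers, so intervals and floors cover counting error only. Repeats and mitochondrial genes were left out. Reads of wells with at least 1000 gene reads were summed by plate, because cells of a plate are not replicates. Plate sums of the 3 types were fitted together with edgeR 4.0.16 (glmQLFit, glmQLFTest, TMM, filterByExpr, Benjamini-Hochberg at 0.05 over all genes), with 2 residual degrees of freedom, all from ES plates, and a biological coefficient of variation of 122.3%. DESeq2 1.42.0 and limma 3.58.1 (voom) were alternatives, beside other scalings, filters, well minimums, barcode sets, thinning and plates left out. The fit was also run on simulated counts, with no outcome given here. Floors are 3 reads per library.

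Reads carried over between plates were estimated from genes of at least 100 CPM in the source and 10 times the plates other than source and target, and the median share per gene was subtracted at each barcode, which took 10.8% of gene reads from ES replicate 3 and 6.41% from MEF. No doublet caller was run, since cells were sorted 1 per well. ES replicate numbers are in accession order. The members and lists were chosen with earlier results of these data known. Named were the members, from each other list the genes past the test over all genes or else the 3 of highest mean CPM over types, relatives of at least 100 CPM on a plate, and the 8 genes most like the summed members in MEF wells. A gene that met these terms is not reported here. Sums, shares and figures were made in Python 3.11.15 with pandas 2.3.3, scipy 1.17.1 and matplotlib 3.10.9, and fits in R 4.3.3.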

Additional observations from a re-analysis of the deposited data

How the results depend on the processing

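The fit has 3 ES plates and 1 plate of each other type, and few or no reads limit Pdlim7 throughout and Zyx and Csrp1 on ES replicate 2. Of 165 fitted values of single members against MEF under the alternatives, 152 kept direction and side of the threshold, 13 passed it and 0 reversed; against Neuro2A these numbers were 157, 1 and 7 of 165. The causes of the changes below were not tested. Members called against MEF, 0 in edgeR, were 3 by DESeq2, 4 by limma-voom, 2 in thinned wells, and 0 to 4 with an ES plate left out (4 without ES replicate 1 and the tested genes kept, an alternative added after seeing the data). The median log2 ratio of −3.10 was −2.39 by library size, −2.54 with no filter, −3.52 in wells of 5000 reads, −2.07 in thinned wells, −2.54 with mitochondrial genes and repeats in the library size, −2.52 without barcodes ending in G, −2.61 with those alone, and −3.35 to −2.44 with an ES plate left out (−3.36 without ES replicate 3 and the tested genes kept). Against Neuro2A, DESeq2 called 1. Genes with every ES plate below Neuro2A numbered 0 without barcodes ending in G and 2 with those alone. The median was 1.15 in thinned wells. The value of −0.09 for Vcl was 0.081 by library size, 0.019 by limma-voom, 0.62 in thinned wells, 1.60 in wells with barcodes ending in G, and −0.28 to 0.20 with an ES plate left out; that of Myh9 was −0.22 in wells with barcodes ending in G. In thinned wells 5 members were at least 4-fold higher in MEF than Neuro2A, beside 21.5% of genes tested. Csrp1 and Pdlim7 were not tested in thinned wells, so this count and the thinned medians of −2.07 and 1.15 leave them out. The median of −2.61 with barcodes ending in G alone leaves out Pdlim7. The median share of wells with a read of a member was 5.91%, 5.30%, 9.57%, 5.23% and 25.0% after thinning on ES replicates 1, 2 and 3, Neuro2A and MEF, 15.2% on ES replicate 1 and 13.7% on Neuro2A without barcodes ending in G, and 25.5% on ES replicate 3 after subtraction. The Pdlim7 ratio of MEF to ES, 1.14, was 0.533 as a mean of wells and 0.888 without barcodes ending in G. No paired analysis was possible because MEF and Neuro2A have 1 plate each and the labels give no replicate numbers.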
